A study of Mus musculus with 18 samples.

Results

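On the mouse autosomes, 7556 regions carried a peak of histone H3 lysine 9 trimethylation (H3K9me3) in each of 4 libraries, 2 from wild-type (WT) and 2 from knockout (KO) CD8 T cells. They were chosen by merging the 4 deposited peak lists wherever peaks overlapped by 1 bp or more and keeping merged regions with a peak from every list. The merge gave 245630 regions, of which the shared ones were 3.08%. They held 18.3 Mb, or 8.27% of the 222 Mb under all regions. The choice used the presence of peaks, so the properties of the peaks themselves are given as descriptions with no test.

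The series asked what the histone methyltransferase G9a, encoded by Ehmt2, does in CD8 T cells of C57BL/6 mice. H3K9me3 was mapped by native ChIP, in which nuclei are digested with micrococcal nuclease without crosslinking, in cultured CD8 T cells stimulated with antibodies to CD3 and CD28. The 4 libraries were Ehmt2+/+ (WT 1 and WT 2) and Ehmt2-/- (KO 1 and KO 2). RNA was taken from splenic and lymph node T cells that had expanded for 4 weeks in lymphopenic surroundings. It covered 4 samples of CD4+CD8+ G9a KO cells (KO DP), 2 of CD4-CD8+ G9a KO cells (KO SP) and 4 of CD4-CD8+ G9a WT cells (WT SP). The RNA and ChIP samples are therefore different cells in different conditions. A Cre driver and the deleted part of Ehmt2 are not given in the labels. Nor do the labels call the replicates separate animals, and the p-values below therefore cover only variation among the deposited samples, part of which can be technical. Input libraries were not analysed here.

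H3K9me3 is bound by HP1 proteins and marks compact, silent chromatin over satellites, retroelements and clusters of zinc finger genes. It is laid down mainly by SETDB1, which works with ATF7IP and is directed by KRAB zinc finger proteins through TRIM28, and by SUV39H1 and SUV39H2. G9a is known chiefly for the mono- and dimethyl forms of the same residue.

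The peak lists differed in length. WT 1 had 82410 autosomal peaks, WT 2 had 22980, KO 1 had 110466 and KO 2 had 154201. WT 2 had the shortest list. No read totals are in the peak lists and the scaling of their score is not given, so depth was not measured directly. Low scores were near multiples of a step of 0.541, 1.578, 0.4855 and 0.466 in WT 1, WT 2, KO 1 and KO 2. If 1 step is 1 scaled read, depth against WT 1 would be 0.343, 1.11 and 1.16 in WT 2, KO 1 and KO 2. This reading of the step was not tested. Of 19703 regions found in 3 of the 4 lists, 15259 (77.4%) lacked a peak only in WT 2. Without WT 2, 22740 regions were shared by the remaining lists. The median width of regions in exactly 3 lists was 1479 bp, beside 1776 bp for those in all 4.

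The sequences at genes whose start lay inside a shared region are shown first, although not every list had a peak over the start. RefSeq promoters (GRCm38.p6, 250 bases before to 50 after the start) were matched by symbol, because no sequence of the mm9 build of the peak lists was used, so the RefSeq start may differ from the one annotated by the authors. CG dinucleotides, where DNA methylation occurs, are in capitals. The 4 genes printed are Peg3 (an imprinted zinc finger gene), 2210417A02Rik (a noncoding RNA and the gene that differed between RNA groups), Atf7ip (the SETDB1 partner) and Naif1 (a nuclear apoptosis-inducing factor whose start lay under a peak in all 4 lists). The Peg3 start lay under a peak in WT 1 alone. That of 2210417A02Rik was covered only in WT 1 and WT 2, and that of Atf7ip only in WT 1 and KO 1.
Peg3, minus strand, chr7:6730370-6730669: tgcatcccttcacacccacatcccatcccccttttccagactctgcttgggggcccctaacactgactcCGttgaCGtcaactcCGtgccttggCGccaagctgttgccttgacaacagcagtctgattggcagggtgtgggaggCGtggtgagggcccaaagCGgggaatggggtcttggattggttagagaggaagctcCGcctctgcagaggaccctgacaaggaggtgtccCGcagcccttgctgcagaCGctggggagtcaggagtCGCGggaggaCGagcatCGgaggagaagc
2210417A02Rik, plus strand, chr5:148741590-148741889: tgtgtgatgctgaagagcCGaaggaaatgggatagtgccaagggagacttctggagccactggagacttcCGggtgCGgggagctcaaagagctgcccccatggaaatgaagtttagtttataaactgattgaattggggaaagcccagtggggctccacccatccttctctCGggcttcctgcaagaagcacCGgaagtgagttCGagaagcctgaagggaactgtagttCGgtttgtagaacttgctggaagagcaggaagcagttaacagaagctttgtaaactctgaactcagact
Atf7ip, plus strand, chr6:136518601-136518900: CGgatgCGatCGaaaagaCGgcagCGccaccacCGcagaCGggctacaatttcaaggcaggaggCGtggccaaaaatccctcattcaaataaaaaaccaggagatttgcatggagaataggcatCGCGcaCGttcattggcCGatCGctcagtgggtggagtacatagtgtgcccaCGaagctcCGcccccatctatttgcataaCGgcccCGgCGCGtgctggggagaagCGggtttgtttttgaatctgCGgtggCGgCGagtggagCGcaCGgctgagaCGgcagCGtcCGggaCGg
Naif1, plus strand, chr2:32450207-32450506: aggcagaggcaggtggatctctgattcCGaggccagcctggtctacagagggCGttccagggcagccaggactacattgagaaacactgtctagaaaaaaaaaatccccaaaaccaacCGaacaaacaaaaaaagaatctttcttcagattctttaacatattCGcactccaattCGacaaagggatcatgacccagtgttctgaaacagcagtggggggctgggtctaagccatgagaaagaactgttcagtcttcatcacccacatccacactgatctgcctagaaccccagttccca

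These promoters differed widely in CG content. Atf7ip held 29 CG dinucleotides, more than 87.1% of the 32851 RefSeq promoters of this length. Peg3 held 13, 2210417A02Rik 7 and Naif1 5, beside a median of 7 over all promoters. RefSeq gives several promoters for some of the genes, and these can lie far from the shared region, so genes with 1 RefSeq promoter were summed on their own. Over these 38 genes the median was 11.5. The motif TGCCGC, known as the binding motif of the imprint-protecting factor ZFP57 when methylated, was searched on both strands. It was in 4 of the 38 (10.5%) and in 11.6% of all promoters, and in none of the 4 printed. The motif GCCATNTT, the core of YY1 sites, was in 2 of the 38 (5.26%) and in 6.05% of all. The set of all promoters was not limited to genes with 1 promoter, so it is unlike the 38. Without that limit, 64 promoters of 49 genes with a start inside had a median of 10 CG dinucleotides. TGCCGC was in 14.1% of these 64 and GCCATNTT in 7.81%.

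The microRNAs Mir381, Mir539 and Mir382 of the imprinted Dlk1-Dio3 cluster on chromosome 12 also had their annotated start inside shared regions, the first and second in chr12:110963701-110966664 and the last in chr12:110970877-110972000 (mm9). The starts of Mir381 and Mir382 lay under a peak in WT 1 alone, and that of Mir539 only in KO 1 and KO 2. Mature sequences from RefSeq are given with the seed, bases 2 to 8, in capitals. They are shown because they lie within 1 imprinted cluster, and no 2 of their seeds are the same.
miR-381-3p: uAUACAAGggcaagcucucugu
miR-381-5p: aGCGAGGUugcccuuuguauauu
miR-539-5p: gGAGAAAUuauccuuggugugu
miR-382-5p: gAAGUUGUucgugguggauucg
miR-382-3p: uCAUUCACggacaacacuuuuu
All 3 genes were listed at 0 FPKM in every RNA library, and FPKM of such short genes says little about mature microRNAs.

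The shared regions were wide. Their median width was 1776 bp, with quartiles of 1284 and 2746 bp, a minimum of 625 bp and a maximum of 37955 bp, beside a median of 638 bp over all merged regions. Of the 114 merged regions over 10 kb, 99 were shared. The merge itself favours width here, since a shared region joins peaks from every list. Regions found in WT 1, WT 2, KO 1 or KO 2 alone each had a median of 500 bp. In 6001 regions (79.4%) each list had exactly 1 peak. The lists did not always mark the same bases: 5905 regions had bases common to all 4 lists, with a median of 500 bp, and 1651 had none.

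**Figure D1:**
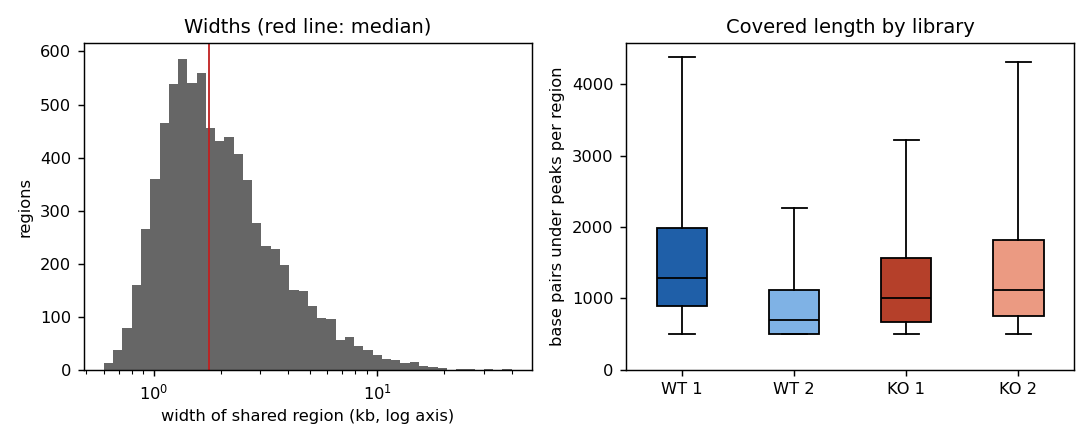
Left, number of shared regions by width in kb on a log axis, with the median of 1776 bp as a red line. Right, base pairs under peaks per shared region in each H3K9me3 library (box, quartiles and median; whiskers, 5th to 95th percentile); the medians were 1281 bp in WT 1, 695 in WT 2, 1010 in KO 1 and 1120 in KO 2.

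Covered length per region followed the library more than the genotype. The median covered length was 1281 bp in WT 1, 695 bp in WT 2, 1010 bp in KO 1 and 1120 bp in KO 2, so the KO libraries lay between the 2 WT libraries. WT 1 was the widest of the 4 in 3607 regions, and WT 2 the narrowest in 4159. Both WT libraries exceeded both KO libraries in 1163 regions (15.4%), and both KO exceeded both WT in 1424 (18.8%). No region was tested, since the presence of peaks had chosen them.

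Shared peaks ranked high within their own lists. The median score percentile of peaks in shared regions was 89.1 in WT 1, 73.2 in WT 2, 90.1 in KO 1 and 88.7 in KO 2, beside 46.0, 43.6, 46.6 and 45.9 for peaks elsewhere. The scores are the authors' own and were compared only within a list. Of the top 10% of peaks by score, 47.6% lay in shared regions in WT 1, 82.0% in WT 2, 39.2% in KO 1 and 25.9% in KO 2. These shares fell as the list grew longer. The top 10% holds more peaks in a longer list, whereas every list had 8163 to 8608 peaks in shared regions. Shared peaks also lay closer to genes, at a median of 34.3 to 37.4 kb from the nearest start over the 4 lists, beside 88.2 to 159 kb for other peaks.

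Retroelements of the long terminal repeat (LTR) class, the remains of endogenous retroviruses, were the commonest of the repeat classes. In the authors' annotation of peak centres, LTR elements held 31.2% of shared peaks in WT 1, 29.7% in WT 2, 30.4% in KO 1 and 30.7% in KO 2. Elsewhere the shares were 19.8%, 17.4%, 17.8% and 18.1%, lower in every list. At least 1 peak centred on an LTR element was found in 3845 shared regions (50.9%), and 1128 regions (14.9%) had one in all 4 lists.

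**Figure D2:**
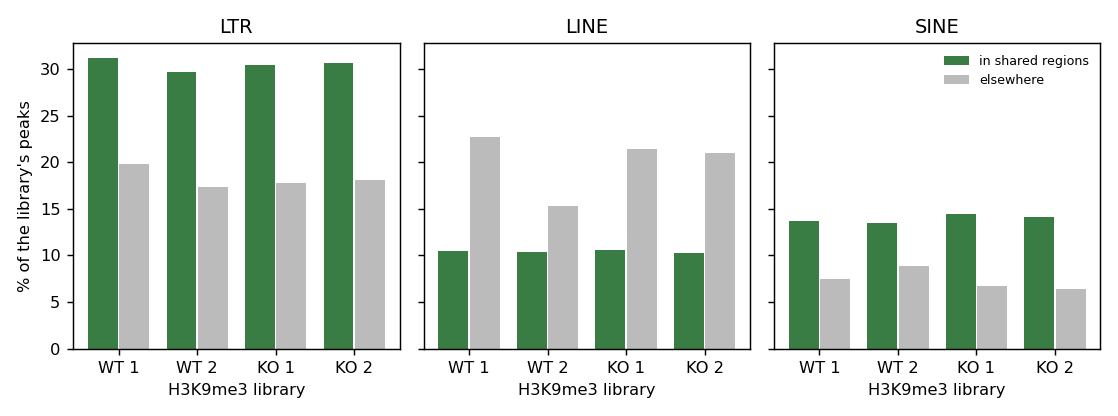
Share of each H3K9me3 library's autosomal peaks, in percent, annotated to LTR, LINE and SINE repeats, inside shared regions (green) and elsewhere (grey). LTR and SINE shares were higher inside shared regions in all 4 libraries, and LINE shares lower.

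LINE elements, the autonomous non-LTR retrotransposons, went the other way. They held 10.2% to 10.6% of shared peaks over the 4 lists and 15.3% to 22.7% of the others. SINE elements, short non-autonomous retrotransposons, held 13.4% to 14.4% of shared peaks and 6.44% to 8.82% of the others. Within SINEs the B2 family held 7.50% to 9.50% of shared peaks and 2.73% to 3.55% elsewhere. Not every SINE family had a larger share inside in all lists. For B4 the share inside was 1.18 times that elsewhere in WT 1 and 1.10 in WT 2, but 0.933 in KO 1 and 0.900 in KO 2. The directions of the 3 classes were the same in the upper 50% of each list by score, an alternative chosen after seeing the data, where LTR elements held 31.7% to 32.5% of shared peaks and 19.2% to 22.4% of the others.

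Among LTR families, ERVK (which includes IAP elements), ERV1 (murine leukaemia virus relatives) and MaLR (older ORR1 and MT elements) all had larger shares inside. The ERVL family did not in every list. Its share inside was 1.19 times that elsewhere in WT 1 and 1.59 in WT 2, but 0.654 in KO 1 and 0.805 in KO 2. For the first families named, the size of the difference varied with the library. The share inside was 1.97 times that elsewhere for ERV1 in WT 1, 2.28 in WT 2, 3.36 in KO 1 and 3.60 in KO 2. For ERVK it was 1.28, 1.43, 1.75 and 1.84 times in the same order, and for MaLR 1.87, 1.88, 1.65 and 1.53 times. Of 36 repeat names with at least 30 peaks inside in every list, 23 had a larger share inside in all 4 lists and 5 a smaller one. The minimum was set on peaks inside only, so names scarce inside were left out. These counts therefore lean toward larger shares inside and are given as a description. All 6 ERVK names, both ERV1 names and 9 of 10 MaLR names were among the 23, and the 5 were all L1 elements. LTRIS2, an ERV1 terminal repeat, had a share 3.84 to 9.10 times as large inside as elsewhere over the lists. MMERVK10C-int, the internal part of an ERVK provirus, had 2.83 to 7.76 times. The L1 elements Lx5 and Lx2 had 0.318 to 0.449 and 0.315 to 0.509 times. Satellite peaks were few, in 37 shared regions (0.490%), but their share was larger inside in every list. They held 0.172% to 0.253% of shared peaks over the 4 lists and 0.0336% to 0.127% of the others.

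The regions were spread unevenly. Chromosome 11 had the highest share of its merged regions shared (5.04%) and chromosome 14 the lowest (1.99%). The median gap between neighbours was 105.6 kb, 972 gaps (12.9%) were under 10 kb and 174 exceeded 2 Mb. In windows of 1 Mb, the fullest was on chromosome 4 from 152 to 153 Mb, with 55 shared regions among 211, near Ajap1 and Gm833. Next came chromosome 4 from 127 to 128 Mb with 45 and chromosome 15 from 87 to 88 Mb, near Fam19a5, with 39.

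The shared regions had 4631 nearest genes, and 3202 of these had 1 region each. The genes with most were Fam19a5, a secreted neural protein (36 regions), Ajap1, an adherens junction protein (35), Cdh13, an atypical cadherin (27), the noncoding Gm833 (26), Tmem132b (24), 1700028P15Rik and Tmem132d (22 each), Wbscr17, a glycosyltransferase (20), and 4933438B17Rik, Kazn and Tshz3 (18 each). For these the median distance was long, from 102 kb for Gm833 to 382 kb for Tmem132b. All 11 genes lay near 0 in RNA, and the highest single value was 0.790 FPKM for Tshz3 in KO DP replicate 4. By symbol, zinc finger genes were nearest to 196 shared regions (2.59%) and to 0.967% of other regions. Killer lectin-like genes were nearest to 12 shared regions (0.159%) and to 0.0235% of others, and cytochrome P450 genes to 0.424% and 0.309%. Olfactory receptor genes were nearest to 0.609% of shared regions and 1.502% of others, and protocadherins to 0.159% and 0.730%. The remaining families counted by symbol also had smaller shares among shared regions.

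**Figure D3:**
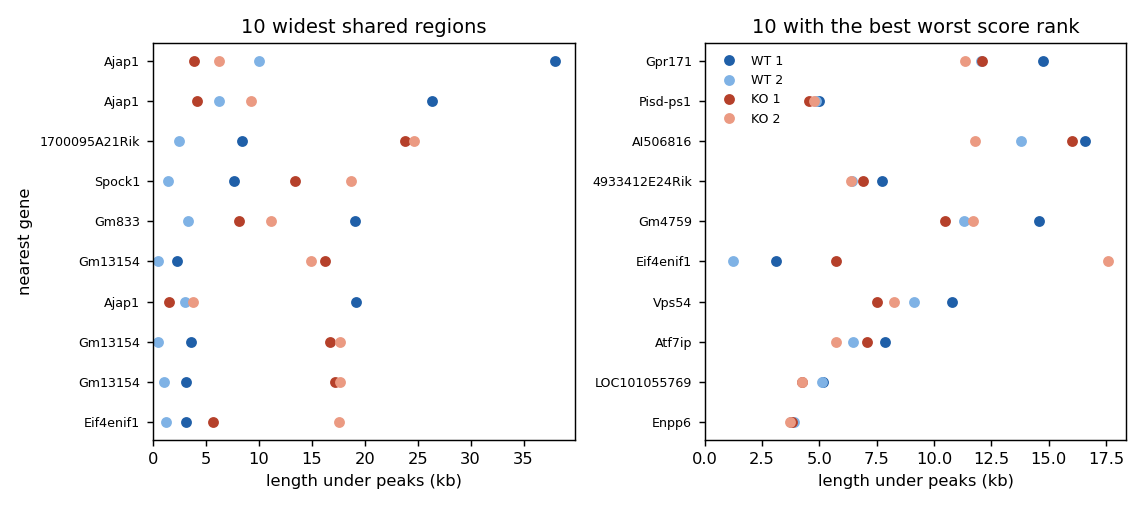
Length under peaks in kb in each H3K9me3 library for the 10 widest shared regions (left) and the 10 whose weakest library ranked best by peak score (right), named by nearest gene. The libraries spread widely in the left set, with WT 1 far above the others near Ajap1 and both KO libraries above both WT libraries near Gm13154; in the right set they lay close together except at Eif4enif1.

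Among the 10 widest regions the libraries often differed in covered length. At chr4:152785751-152823706 near Ajap1, peaks covered 37955 bp in WT 1, 10020 in WT 2, 3864 in KO 1 and 6233 in KO 2, and no base was common to all 4. At chr4:145658124-145682977, within 1700095A21Rik and Gm13247, both KO libraries lay above both WT libraries, with 8457 bp in WT 1, 2500 in WT 2, 23850 in KO 1 and 24610 in KO 2. The 3 regions near Gm13154 on the same chromosome, from chr4:146790217-146809407 to chr4:146888245-146906938, also had both KO libraries above both WT libraries.

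In contrast, the region with the best worst rank was covered to a similar length in every list. It was chr3:58894361-58909109, over Gpr171, a G protein-coupled receptor gene that overlaps Med12l. Peaks there covered 14748 bp in WT 1, 12035 in WT 2, 12075 in KO 1 and 11336 in KO 2, with 10388 bp common to all 4, and its top score was at the 99.96 percentile or above in each list. Next by this measure were chr11:3000125-3005340, on the major satellite GSAT_MM, and chr5:23201557-23218151, on MuLV-int, the internal part of a murine leukaemia virus relative. The input signal at these positions was not analysed here, and its part in these peaks was not tested.

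The gene Atf7ip had 8 shared regions nearest to it, on both sides of its start. The strongest, chr6:136412800-136421024, was covered over 7845, 6457, 7089 and 5719 bp in WT 1, WT 2, KO 1 and KO 2. The region over the start, chr6:136465035-136468734, was covered over 3030, 2042, 2177 and 637 bp. Fam208a, which encodes the HUSH silencing complex subunit TASOR, had its start in chr14:28237757-28242244, covered over 4389, 2239, 2505 and 2105 bp. Of 28 genes of H3K9 methylation and silencing, 3 had a start inside (these 2 and Kdm3b, a demethylase) and 9 had a shared region nearest. Of all genes nearest to a merged region, 31.4% had a shared region nearest, and 0.566% of the genes with a placed start had it inside.

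At Cd4, the helper coreceptor gene, 1 shared region lay upstream, at chr6:124838898-124839765, with the closest peak centre 1.05 kb before the start and an ORR1C2 element under it. Peaks covered 650 bp in WT 1, 500 in WT 2, 628 in KO 1 and 752 in KO 2, so the WT and KO libraries overlapped. Of 25 helper lineage genes, none had a start inside a shared region and 12 had one nearest, beside the shares of 0.566% and 31.4% above. In RNA, limma at an adjusted p under 0.05 called 10 of the 11 tested genes with a shared region nearest higher in KO DP than in WT SP, and 8 of the 9 tested genes with none, beside 2.86% of all genes tested. KO DP cells were defined by CD4, so this list is not independent of the groups. No germline gene (of 23) and 2 imprinted genes (of 21, Peg3 and Usp29) had a start inside. No germline gene reached the minimum for testing in RNA. Of 5 imprinted genes tested, limma called 1 between KO DP and WT SP, Airn, which was lower, beside 5.03% of all genes called lower. Airn had 3 shared regions within its gene body and none for which its start was the nearest.

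Start sites were rarely inside. Of 14133 genes whose start could be placed on mm9, 80 had it in a shared region, in 77 regions (1.02%, beside 0.383% of other regions). Shared regions are wider, and per Mb there were 4.20 regions with a start among shared and 4.48 among other regions. They were 59 protein-coding genes, 17 noncoding RNAs and 4 pseudogenes. A start inside the merged region was often under a peak in only some lists: 38 were under a peak in 1 list, 22 in 2, 14 in 3 and 6 in all 4. By library, 69 were under a peak in WT 1, 35 in WT 2, 26 in KO 1 and 18 in KO 2, and 31 were under a peak in WT 1 alone. Without WT 1 the count of genes fell to 44, and without WT 2 it was 137.

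**Figure D4:**
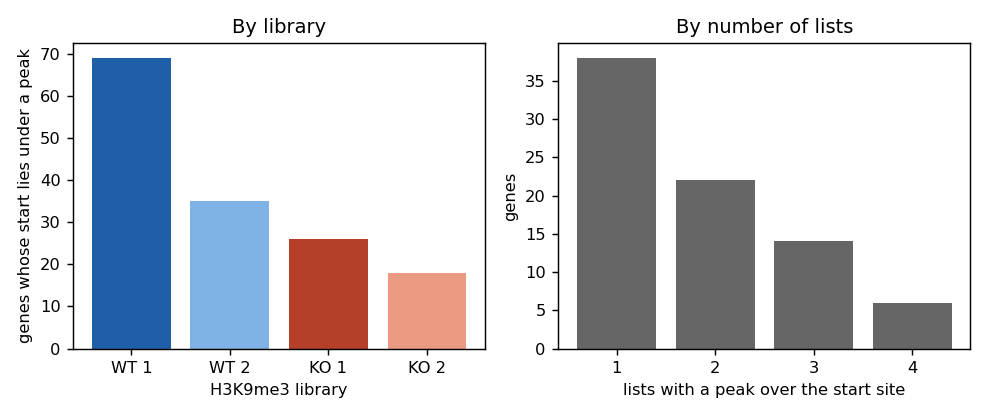
Genes with a start site inside a shared region. Left, number whose start lay under a peak in each H3K9me3 library, highest in WT 1 (69) and lowest in KO 2 (18); right, number by how many lists had a peak over the start, from 38 with 1 list to 6 with all 4.

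Those under a peak in all 4 lists off chromosome 18 were Gpr171, Lrmp, Naif1, Bglap3 and 4933430H16Rik. At Peg3 and the divergently transcribed Usp29, in chr7:6680006-6683758, only WT 1 had a peak over the starts; peaks covered 3639 bp in WT 1, 934 in WT 2, 742 in KO 1 and 686 in KO 2, and no base was common to all 4.

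RNA was given as FPKM, fragments scaled to transcript length and library size, with unknown depth. Column sums ran from 441903 to 504013 in 8 libraries, and were 292872 and 183632 in KO DP replicates 3 and 4. Ehmt2 lay at 20.9, 23.6, 12.8 and 7.28 FPKM in KO DP, with 12.6 and 13.6 for KO SP, whereas WT SP had 18.1, 42.6, 27.0 and 21.5. The KO DP and WT SP values overlapped, both KO SP values lay below all WT SP values, and neither difference passed limma's test (adjusted p = 0.205 and 0.938). FPKM over the whole gene does not test the loss of an exon. T cell markers were present throughout, with 5 of 6 in the table and a summed level of 1108 to 3900 FPKM. Libraries with titles 34 to 37 (KO DP and WT SP replicates 1 and 2) stood apart in myeloid and red cell markers. All 6 myeloid markers in the table were detected, summing to 43.2 to 119 FPKM in those and 4.50 to 21.5 in the others, and red cell markers summed to 468 to 1213 and 1.32 to 57.3, with Hbb-b1 at 0 in the others. B cell markers overlapped, at 35.6 to 79.5 FPKM in titles 34 to 37 and 44.7 to 106 in the others. So did NK cell markers, at 48.0 to 93.4 and 34.2 to 183.

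Of the 80 genes with a start inside, 74 were in the RNA table, 6 of them by an older symbol. Levels were mostly low: 30 (40.5%) had a mean of at least 0.5 FPKM, the minimum for testing, beside 48.0% of all 23234 genes, and 8 were at 0 in every library. They were higher than genes with a start in a region that was not shared, of which 96 of 869 reached the minimum. Their median mean level was 0.125 FPKM, beside 0.338 for all genes and 0.0321 for the latter. No test was made of these differences. In bulk samples, fewer cells of a type and less RNA per cell cannot be told apart.

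A few were well expressed. Adh5, a formaldehyde-detoxifying dehydrogenase, had the highest mean, at 75.8, 79.2, 57.7 and 31.0 FPKM in KO DP, 127 and 112 for KO SP, whereas WT SP had 88.6, 72.9, 98.3 and 97.5. KO DP and WT SP overlapped, and both KO SP values lay above all WT SP values without passing limma's test (adjusted p = 0.938). Its start lay under a peak only in WT 2. Lrmp, a lymphoid membrane protein, was at 61.0, 64.1, 35.5 and 23.8 in KO DP, 81.6 and 64.5 for KO SP, whereas WT SP had 53.9, 113, 57.0 and 53.2. KO DP and KO SP each overlapped WT SP, and both KO SP values lay above all KO DP values.

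Gpr171, in the region with the best worst rank, was at 51.4, 52.6, 28.1 and 20.3 FPKM in KO DP, 64.6 and 57.2 for KO SP, whereas WT SP had 53.8, 61.9, 60.2 and 72.1. All 4 KO DP values lay below all WT SP values, but the difference (log2 −0.79, SE 0.32) did not pass limma's test (adjusted p = 0.147), and KO DP replicates 3 and 4, the lowest, also had the lowest total FPKM, whose part was not tested. Atf7ip was at 46.6, 47.5, 19.5 and 11.4 in KO DP, 28.1 and 27.9 for KO SP, whereas WT SP had 41.3, 38.1, 26.0 and 19.4, with overlap. The other highly expressed genes were Mina (a ribosomal oxygenase), 2810474O19Rik, Tug1 (a long noncoding RNA), Edc3 (mRNA decapping) and Sfi1 (centrosome), with means from 49.2 FPKM for Mina to 16.0 for Sfi1. Mir5103 had a high mean only through 2 libraries, 97.2 in KO SP replicate 1 and 80.7 in WT SP replicate 1, and was at 0 in the other 8.

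**Figure D5:**
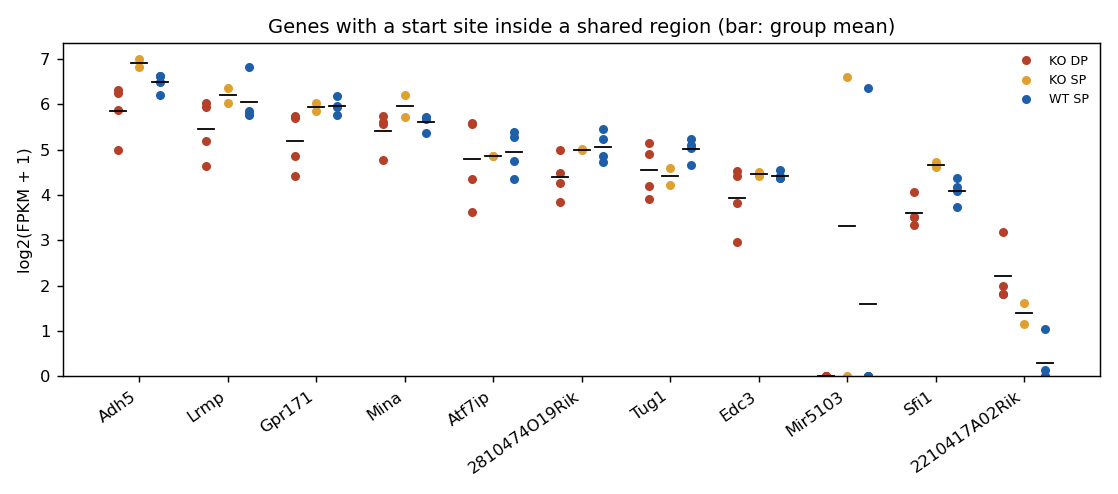
RNA level, as log2(FPKM + 1), in each library (points) with the group mean (bar) for the 10 most expressed genes with a start site inside a shared region and for 2210417A02Rik; KO DP, n = 4, KO SP, n = 2, WT SP, n = 4. KO DP and WT SP values overlap for most genes, while all KO DP values of 2210417A02Rik lie above all WT SP values.

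Between KO DP and WT SP, 1 of the 30 tested genes was called by limma at an adjusted p under 0.05, beside 7.89% of all 11162 genes tested (2.86% higher and 5.03% lower). It was 2210417A02Rik, at 2.50, 2.99, 8.12 and 2.53 FPKM in KO DP and 0, 1.07, 0.102 and 0 in WT SP. KO DP was higher by 1.90 on the log2(FPKM + 1) scale (SE 0.36, limma adjusted p = 0.00904), and all 4 KO DP values lay above all 4 WT SP values. KO SP had 2.09 and 1.24, also above all WT SP values (log2 difference 1.09, SE 0.44), without passing the test (limma adjusted p = 0.938). In the shared region over its start, chr5:149553164-149556514, peaks covered 3203 bp in WT 1, 1042 in WT 2, 1343 in KO 1 and 500 in KO 2, and the start lay under a peak in both WT lists and neither KO list. Of the 80 genes, 14 had a start under both WT lists and neither KO list, and 3 the converse. Over all 14133 placed starts the shares were 0.481% and 0.233%, and nothing is read from the members' counts, since the presence of peaks chose them.

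The median log2 difference of the 30 genes was −0.38, and that of all tested genes −0.38. With median-ratio scaling the median of all genes moved to −0.01 and that of the 30 to −0.04, and 5 of the 30 were called, beside 17.6% of all genes under this scaling: 2210417A02Rik, Trerf1 (a transcription factor), Nlrx1 (a mitochondrial NOD-like receptor) and 2610524H06Rik higher, and Gpr171 lower. Over all genes this scaling moved the calls from 36.2% higher to 55.1% higher. With the replicate number as a block, Trerf1 was also called, making 2 of the 30, beside 12.9% of all genes. Without titles 34 to 37, 16 of the 30 were called, 14 of them lower, when 53.9% of all tested genes were called; the KO DP libraries left were those with the lowest total FPKM. Without WT SP replicate 2, limma called 2210417A02Rik and, lower in KO DP, Gm10416.

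Between KO SP and WT SP, limma called 0 of the 30 genes, beside 0.116% of all genes tested (0.0717% higher and 0.0448% lower), and 1 of the 30 had an unadjusted p under 0.05, beside 3.44% of all. No other tool was run. The median log2 difference of the 30 was 0.25 and that of all tested genes 0.11. The 2 comparisons share the WT SP libraries. Of the 28 silencing genes, all were tested and limma called 0 in either comparison; 5 in KO DP and 1 in KO SP had an unadjusted p under 0.05, beside 27.3% and 3.44% of all genes. The 28 had a median log2 difference of −0.34 in KO DP and −0.13 in KO SP.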

How the data were processed

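The authors deposited FPKM for 10 RNA libraries, and 4 annotated H3K9me3 peak lists. The submitters' processing notes name TopHat and Cufflinks, Bowtie and HOMER, and the build mm9, without versions. RNA libraries were made by SMART-Seq amplification, which does not mark strand, per the labels' protocols. The deposited peak score is the authors', and its scaling and the use of input are not given. Repeat and gene annotations are those deposited with each peak. Lines of the RNA table repeating a symbol were summed, leaving 23234 symbols; 12 columns of the authors' averages and ratios were not used. Start sites were rebuilt from deposited distances, with strand the same as in RefSeq for 99.6% of 10858 compared.

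RNA groups were compared by limma (3.58.1, R 4.3.3) after adding 1 to FPKM and taking log2. All 10 libraries entered 1 fit with a variance trend, over genes averaging 0.5 FPKM or more, with Benjamini-Hochberg adjustment over all and a threshold of 0.05. The method was tested on simulated data. KO DP and WT SP share replicate numbers in the submitters' descriptions; same-numbered deviations correlated at 0.119, 0.293, 0.111 and 0.103, each above 0.1, and pairing was therefore assumed in the blocked alternative, although same-numbered samples also share title ranges. KO DP replicates 3 and 4 share title numbers 738 and 739 with KO SP replicates 1 and 2. Regions were computed with pandas 2.3.3.

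Named genes were Ehmt2, the 10 most expressed genes with a start inside, called genes and the 10 nearest genes with most regions (11 with a tie); named regions were the 10 widest and the 10 with the best worst score percentile. Other names were chosen after their values were seen or come from the lists. Members and lists were chosen with earlier results of these data known. Regions on chromosome 18 were counted and not described.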

Additional observations from a re-analysis of the deposited data

Results flagged for a closer look

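Among the named genes, 23 groups of 4 libraries were checked for a library far from the other 3, and 5 were found; chance alone gives about 1 in 20. Lrmp was at 113 FPKM in WT SP replicate 2 and at 53.2 to 57.0 in the other 3. Mina was at 40.2 FPKM in WT SP replicate 1 and at 50.4 to 52.0 in the others. Mir5103 was at 80.7 FPKM in WT SP replicate 1 and at 0 in the others. 2210417A02Rik was at 8.12 FPKM in KO DP replicate 3, with 2.50 to 2.99 in the others, and at 1.07 in WT SP replicate 2, with 0 to 0.102 in the others.

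Outside the autosomes, which the results do not use, 87 further regions on the sex chromosomes or unplaced sequence held a peak in all 4 lists.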

How the results depend on the processing

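The number of shared regions was 4704 with the upper 50% of each list by score and 3609 with lists of 22980 top peaks each. The median width was 2438 bp with peaks up to 1000 bp apart joined, 1516 bp where every library had to cover 25% of the region, and 2075 bp with lists of the same length. The share of regions with an LTR peak was 55.2%, 53.8% and 54.8% with joined peaks, upper 50% lists and lists of the same length, and 52.9% without satellite, simple and low-complexity peaks, an alternative chosen after seeing the data. The number of genes with a start inside was 152 with joined peaks, 51 with 25% cover and 39 with lists of the same length. Leaving out 1 library at a time gave 8350 to 22740 regions, widths of 1445 to 1603 bp, LTR shares of 40.1% to 46.3% and 44 to 137 genes; fewer lists then had to hold a peak.

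Of genes with a start inside, those called between KO DP and WT SP numbered 5 with median-ratio scaling, 2 with the replicate block, 16 without titles 34 to 37 and 0 with lists of the same length, which dropped 2210417A02Rik from the set; leaving out 1 library at a time gave 1 to 2. In the larger set of 1172 tested genes named by the authors' annotation of shared peaks, 124 (10.6%) were called. Between KO SP and WT SP, 1 gene (Kdm3b) was called with the replicate block, and leaving out 1 library gave 0 each time. Numbers 1 and 2 of KO SP and WT SP correlated at -0.034 and -0.110, so they share only a number; by title, KO SP 1 and 2 go with KO DP 3 and 4 (738 and 739), not with titles 34 to 37 as in this block. 2210417A02Rik stayed called, and higher in KO DP, in all 15 alternative fits (log2 1.58 to 4.04, limma adjusted p 0.00333 to 0.0396). Apart from fewer lists, genes or samples, the causes were not tested. FPKM holds no read counts, so the depth behind low genes is unknown.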
